A study of Mus musculus with 102 samples.

Results

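Monoamine neurons are named for the transmitter they make, and each kind carries its own set of enzymes and transporters. The genes described here are 10 that code for this machinery or mark it: *Th*, *Ddc*, *Slc6a3*, *Slc18a2*, *Dbh*, *Slc6a2*, *Tph2*, *Slc6a4*, *Fev* and *Hdc*. They were chosen by name, and 9 of the 10 had a probe set that the platform annotation assigned to that gene alone, among 18193 genes with such a probe set. *Fev* was not analysed here. The 9 genes had 16 probe sets, and for each gene the probe set with the highest mean over 48 regions was used, with the others as a check.

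The arrays came from male Balb/c mice aged 7 to 8 weeks, with no named allele and no drug, kept in a light and dark cycle of 12 h each and sampled in it or in constant darkness. Tissue of 51 regions was punched with a needle of 0.5 mm from slices 0.5 mm thick, every 4 h at 6 time points, and the tissue of several mice and all time points was pooled for 1 array. Such punches can take in neighbouring tissue. The authors state that the raphe nuclei, the noradrenergic locus coeruleus and the tuberomammillary nucleus were left out of the sampled regions. The whole procedure was repeated, so each region has 2 arrays from separate pools (replicates 1 and 2), and time of day was not resolved. Values are log2 signals, and regions are named by the abbreviations of the labels, among them VTA (ventral tegmental area), SN (substantia nigra), PAG (periaqueductal gray), Tg (dorsal tegmental nucleus), OB (olfactory bulb), Arc (arcuate nucleus), MPA (medial preoptic area), M (mammillary body) and DM (dorsomedial hypothalamic nucleus). Each of 48 regions was set against the average of the 47 others, and retina, pituitary and pineal against the average of the 48. A gene was called higher or lower where the adjusted p of limma was under 0.05 and the difference was at least 1 on the log2 scale.

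In catecholamine neurons tyrosine hydroxylase (*Th*) makes DOPA from tyrosine, and aromatic amino acid decarboxylase (*Ddc*) turns DOPA into dopamine. Noradrenaline neurons add dopamine β-hydroxylase (*Dbh*). Serotonin neurons of the raphe use tryptophan hydroxylase 2 (*Tph2*) and the same *Ddc*, and histamine neurons of the tuberomammillary nucleus use histidine decarboxylase (*Hdc*) alone. The vesicular transporter VMAT2 (*Slc18a2*) loads all 4 amines, whereas the plasma membrane transporters for dopamine (*Slc6a3*), noradrenaline (*Slc6a2*) and serotonin (*Slc6a4*) each take up mainly one of them. *Th* alone therefore cannot tell dopamine from noradrenaline cells. *Ddc* cannot tell dopamine, noradrenaline and serotonin sources apart, and *Slc18a2* cannot tell any of the 4 apart.

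The promoter windows of the 6 genes with the widest regional range are shown because their levels moved together in pairs of regions: *Th*, *Ddc*, *Slc6a3* and *Slc18a2* in VTA and SN, and *Tph2* and *Slc6a4* in PAG and Tg. Each is 300 bases of the RefSeq sequence (GRCm38.p6) around an annotated start of the gene, read on its strand, and base positions count back from that start. The windows lie at chr7:142899946-142900245 (minus strand, *Th*), chr11:11898095-11898394 (minus, *Ddc*, the upstream of its 2 annotated starts), chr13:73536497-73536796 (plus, *Slc6a3*), chr19:59260628-59260927 (plus, *Slc18a2*), chr10:115184973-115185272 (minus, *Tph2*) and chr11:76998347-76998646 (plus, *Slc6a4*). Capitals mark matches, on either strand, to 4 motifs: the cAMP response element TGACGTCA, the NBRE AAAGGTCA that NR4A receptors such as NURR1 bind, the ETS core GGAAGT and the TATA box TATAAA.
Th: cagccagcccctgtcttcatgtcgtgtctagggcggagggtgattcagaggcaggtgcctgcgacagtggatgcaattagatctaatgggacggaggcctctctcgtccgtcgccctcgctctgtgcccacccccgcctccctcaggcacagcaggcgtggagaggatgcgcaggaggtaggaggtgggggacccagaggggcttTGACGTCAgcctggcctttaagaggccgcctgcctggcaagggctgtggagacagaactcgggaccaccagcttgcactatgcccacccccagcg
Ddc: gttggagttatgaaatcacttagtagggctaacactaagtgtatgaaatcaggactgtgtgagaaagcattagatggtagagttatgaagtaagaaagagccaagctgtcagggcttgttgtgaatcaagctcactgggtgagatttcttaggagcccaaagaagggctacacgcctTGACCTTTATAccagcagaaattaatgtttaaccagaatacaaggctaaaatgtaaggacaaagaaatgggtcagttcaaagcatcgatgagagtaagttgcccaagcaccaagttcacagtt
Slc6a3: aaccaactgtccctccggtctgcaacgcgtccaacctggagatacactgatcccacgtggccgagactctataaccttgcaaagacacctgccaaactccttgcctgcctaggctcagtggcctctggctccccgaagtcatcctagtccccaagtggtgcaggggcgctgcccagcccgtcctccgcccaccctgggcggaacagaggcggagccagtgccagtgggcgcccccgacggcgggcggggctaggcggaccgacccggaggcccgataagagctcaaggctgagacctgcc
Slc18a2: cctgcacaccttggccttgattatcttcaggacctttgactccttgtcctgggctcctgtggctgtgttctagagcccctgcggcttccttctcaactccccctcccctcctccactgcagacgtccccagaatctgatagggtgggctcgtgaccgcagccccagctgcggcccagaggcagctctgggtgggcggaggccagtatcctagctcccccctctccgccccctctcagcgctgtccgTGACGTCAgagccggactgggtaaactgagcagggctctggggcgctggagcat
Tph2: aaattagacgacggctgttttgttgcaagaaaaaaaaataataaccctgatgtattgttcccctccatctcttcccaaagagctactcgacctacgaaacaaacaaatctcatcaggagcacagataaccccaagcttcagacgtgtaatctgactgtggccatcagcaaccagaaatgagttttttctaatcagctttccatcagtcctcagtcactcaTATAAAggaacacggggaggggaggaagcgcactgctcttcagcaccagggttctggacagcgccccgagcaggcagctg
Slc6a4: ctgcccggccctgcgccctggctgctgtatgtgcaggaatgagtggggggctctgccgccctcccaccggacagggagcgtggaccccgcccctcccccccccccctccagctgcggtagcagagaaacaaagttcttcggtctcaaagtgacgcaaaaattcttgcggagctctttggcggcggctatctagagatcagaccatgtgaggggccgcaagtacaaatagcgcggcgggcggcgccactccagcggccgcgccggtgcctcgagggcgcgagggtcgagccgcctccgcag
The cAMP response element began at base -45 in *Th* and at base -4 in *Slc18a2*, and 1.79% of all 32851 promoter windows held one. The upstream *Ddc* window held an NBRE on the minus strand at base -73, a motif found in 1.51% of windows, and it overlapped a minus-strand TATAAA at base -68. The window at the other annotated *Ddc* start (chr11:11890359-11890658, not shown) held none of these motifs. Which start the regions used was not tested. *Tph2* had TATAAA at base -30 on the plus strand, as did 13.6% of windows on either strand, and no window shown held GGAAGT, found in 23.8%. The windows of *Slc6a3* and *Slc6a4* held none of these letters. A match describes letters only.

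Marker genes of the regions were read first. Their lists were chosen with earlier results of these data known, so they are no independent test of the labels. In VTA and SN 4 of 5 midbrain dopamine markers were called higher in each (*Nr4a2*, *Foxa1*, *Foxa2* and *Chrna6*), while *Pitx3*, a factor that defines these neurons, stood only 0.33 and 0.45 above the other regions. Arc passed 3 of 3 measured markers, OB anterior and OB posterior 4 of 4 each, SCN (suprachiasmatic nucleus) 4 of 4, M 3 of 4 and Tg 3 of 5, where the cholinergic enzyme *Chat* differed by -0.01, while PAG passed 4 of the same 5. The arrays labelled LH (lateral hypothalamus) went against their label. *Hcrt* and *Pmch*, the defining peptides of that area, differed there by 0.04 and -0.23, whereas in DM they were 3.68 and 6.19 higher. The authors name *Hcrt* as a candidate marker of DM and report its expression there by in situ hybridization. Whether the DM punches held cells of the lateral hypothalamus was not tested. Oligodendrocyte genes were higher in VTA (7 of 11), SN (8 of 11) and Cb nucleus (9 of 11), where 0.862%, 0.655% and 1.26% of all probe sets were. They were lower in MPA (8 of 11) and OB anterior (7 of 11), where 0.839% and 0.879% of all probe sets were. Their part in the results was not tested.

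At least 1 of the 9 genes was called higher in 19 of the 48 regions, and in the other 29 none was. *Ddc* was higher in 12 regions, *Slc18a2* in 10, *Th* in 9, *Tph2* and *Hdc* in 3 each, *Slc6a3* and *Slc6a4* in 2 each, and the probe sets used for *Dbh* and *Slc6a2* in 0. Over all 45037 probe sets, 1.40% of the pairs of probe set and region were called higher. *Ddc* was also called lower in 15 regions, *Slc18a2* in 13 and *Th* in 6, and the other genes in none. Of all probe sets, between 0.180% (VTA) and 2.32% (ME, median eminence) were called lower in a region. By limma at an adjusted p under 0.05 alone, without the size rule, *Dbh* was higher in 4 regions and *Slc6a2* in 1, where 13.9% of all such pairs were. PAG combined 5 of the genes (*Th*, *Ddc*, *Slc18a2*, *Tph2*, *Slc6a4*) where 0.424% of all probe sets were called higher. VTA (0.862%) and SN (0.655%) combined 4, all of the dopamine set, Tg (0.460%) 4, all but *Th* of the PAG set, and MPA (1.37%) 4, which were *Th*, *Ddc*, *Slc18a2* and *Hdc*. The background was 1.26% in Arc and 1.20% in DM, with 3 genes each, and 0.717% in M and 0.471% in Pa (paraventricular nucleus), with 2 each. It was 2.14% in OB anterior, 2.30% in OB posterior, 2.30% in SO (supraoptic nucleus), 2.14% in SCN, 0.959% in VMH (ventromedial nucleus), 1.19% in SPa dorsal and 0.724% in SPa ventral (parts of the subparaventricular zone), 1.41% in LS (lateral septal nucleus), 1.11% in LG (lateral geniculate body) and 1.07% in Pn (pontine nucleus), with 1 gene each. In bulk tissue fewer cells of a type and less RNA per cell cannot be told apart.

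**Figure D1:**
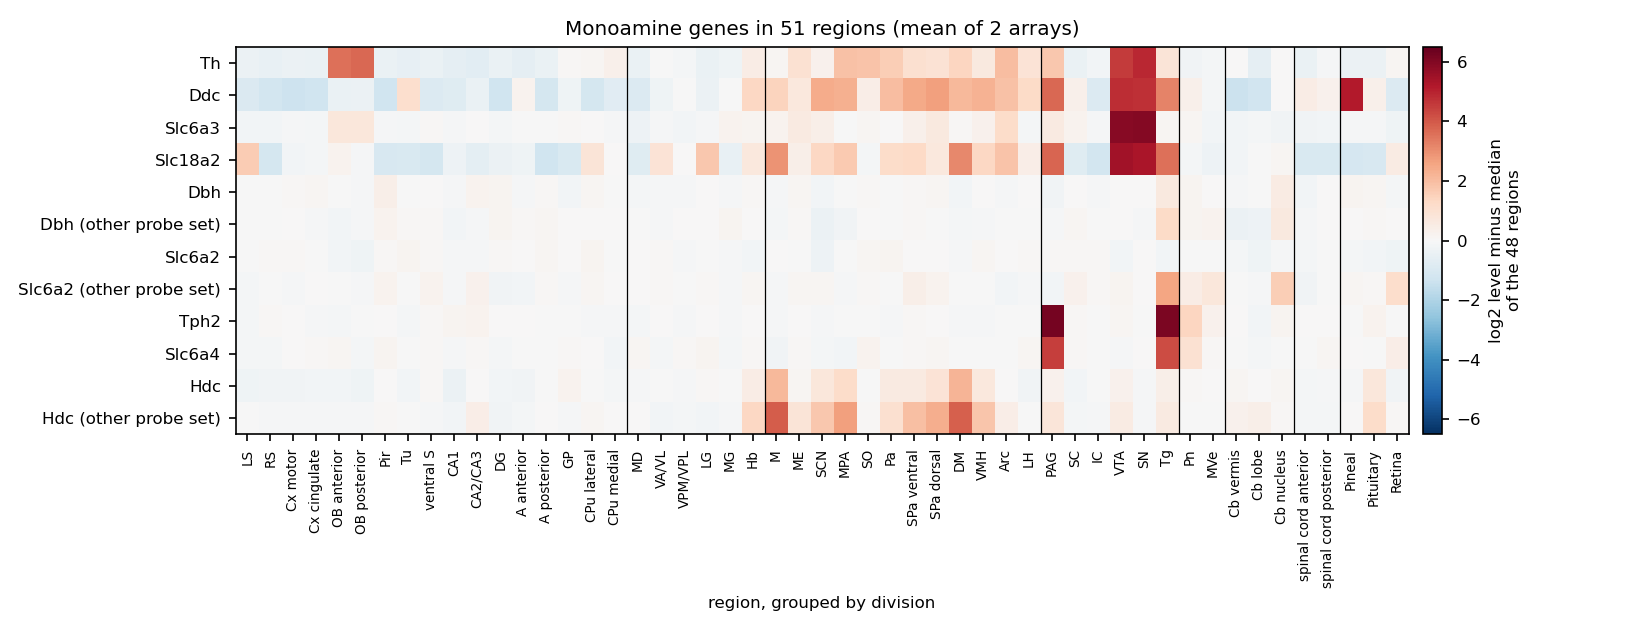
Rows are the 9 genes, with a second probe set of Dbh, Slc6a2 and Hdc, and columns the 51 regions grouped by division; colour is the log2 level (mean of 2 arrays) minus the median of the 48 regions. The darkest cells of Slc6a3 lie in VTA and SN, those of Tph2 and Slc6a4 in PAG and Tg, those of Hdc in M and DM, and Th has a separate block in the 2 OB regions.

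The dopamine transporter *Slc6a3* gave the sharpest pattern of the dopamine set. The 2 arrays read 12.27 and 12.59 in VTA and 12.28 and 12.67 in SN. The highest array elsewhere read 7.82, in Arc, so the arrays of VTA and SN did not overlap with those of any other region. The median of the 48 regions was 6.50. The difference from the other regions was 5.72 in VTA (SE 0.09, adjusted p = 2.13e-47) and 5.77 in SN (SE 0.09, adjusted p = 1.38e-47).

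*Th*, the rate-limiting enzyme, read 12.07 and 12.72 in VTA and 12.28 and 13.19 in SN. These 4 arrays were the highest of all 51 regions. The difference was 4.12 in VTA and 4.47 in SN (SE 0.14 each). *Ddc* read 12.70 and 13.06 in VTA and 12.50 and 13.19 in SN, exceeded only by the pineal. *Slc18a2* read 12.00 and 12.66 in VTA and 11.77 and 12.64 in SN, all above its highest array elsewhere, which was 11.50 in PAG. The differences were 4.40 and 4.36 for *Ddc* and 5.01 and 4.88 for *Slc18a2*. The second probe set of *Ddc* differed there by 0.22 in each and was called in neither.

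Between VTA and SN limma called 0 of the 9 genes, and 1 (*Hdc*, by 0.34) had an unadjusted p under 0.05, against 0.822% of all probe sets called higher and 0.393% called lower in VTA. The interval of the difference (95%) was -0.75 to 0.06 for *Th*, -0.45 to 0.52 for *Ddc*, -0.31 to 0.22 for *Slc6a3* and -0.62 to 0.86 for *Slc18a2*. The widest of these intervals reached 0.86, so equal levels were not shown. By the second *Hdc* probe set VTA was 0.62 higher (interval 0.21 to 1.03, limma adjusted p = 0.0245), under the size rule. The arrays of the 2 regions were sampled in different periods, and period and region cannot be told apart here. Of a list of 14 genes of dopamine neurons, 10 were higher in VTA and 8 in SN. Among them were *Aldh1a1*, a retinaldehyde dehydrogenase (4.07 and 4.15), the nicotinic receptor subunit *Chrna6* (3.11 and 2.82), the GDNF receptor *Ret* (2.75 and 2.37), the homeobox gene *En1* (3.32 and 2.85) and the autoreceptor *Drd2* (2.01 and 1.91). The list median was 1.91 in VTA and 1.18 in SN, beside -0.03 and -0.01 over all probe sets.

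**Figure D2:**
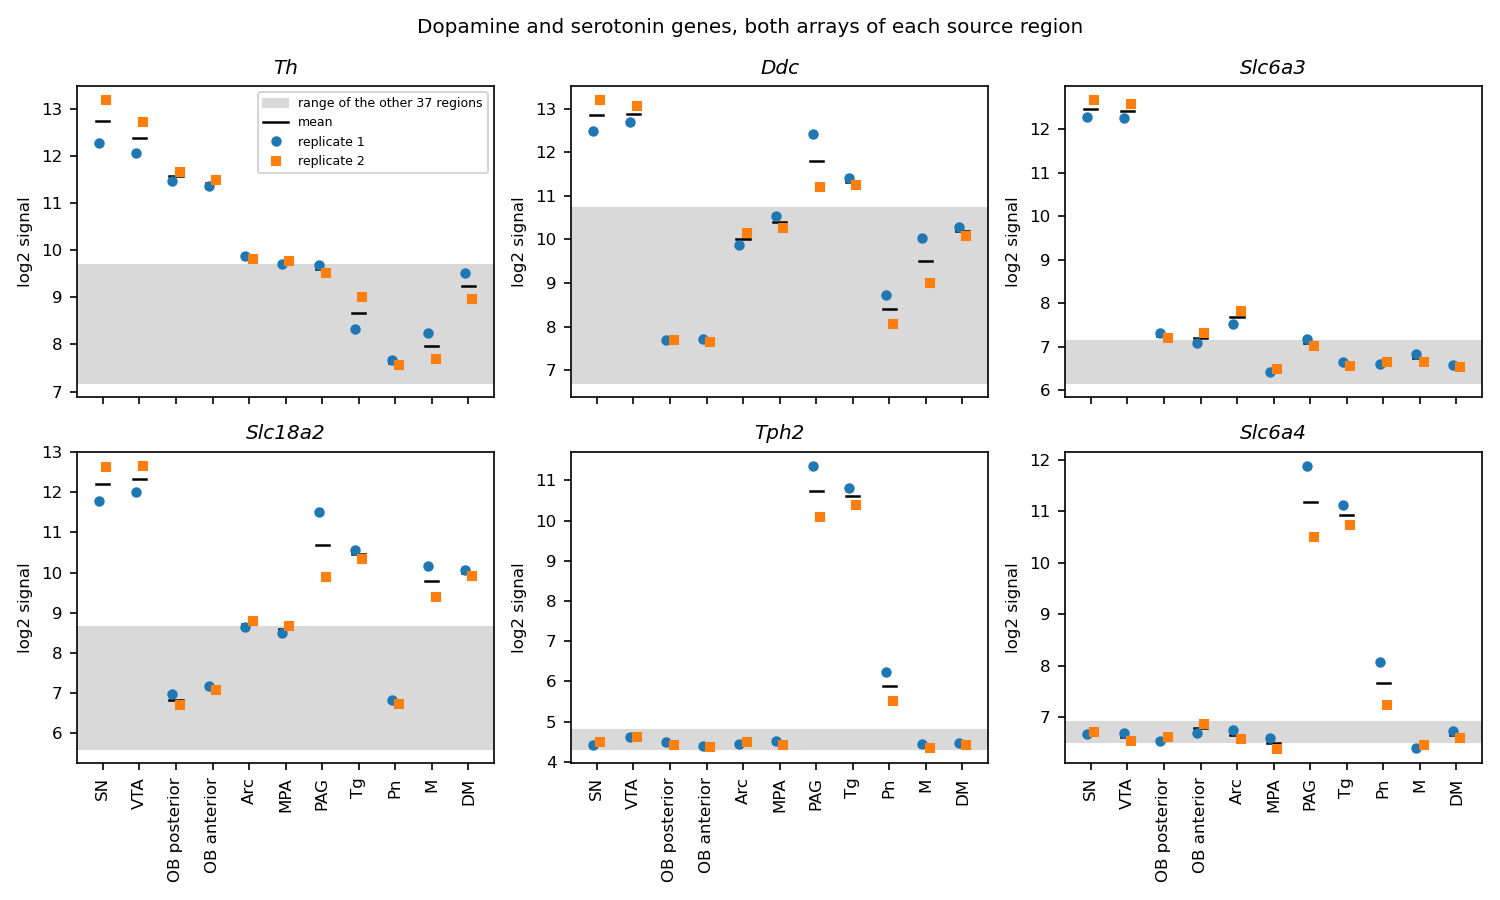
Each panel is 1 gene; points are the 2 arrays of 11 regions (circles replicate 1, squares replicate 2) on a log2 signal axis that does not start at 0, black bars their mean, and the grey band the range of the means of the other 37 regions. Th is high in SN, VTA and both OB regions, Slc6a3 only in SN and VTA, and Tph2 and Slc6a4 in PAG and Tg with Pn next.

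The olfactory bulb held the next levels of *Th*, without a call for the other genes of the midbrain set. *Th* read 11.37 and 11.48 in OB anterior and 11.48 and 11.67 in OB posterior, differences of 3.13 and 3.28. No array of the bulb overlapped with those of VTA and SN above or Arc below. *Ddc* there read 7.64 to 7.71, below its median of 8.08 over the 48 regions, and differed from the other regions by -0.92 and -0.90 (adjusted p = 1.87e-05 and 3.05e-05). *Slc18a2* read 6.70 to 7.17 around its median of 6.88, and neither OB region passed the test. *Slc6a3* was 0.39 and 0.44 above the other regions, under the size rule, at the levels next after SN, VTA and Arc. The midbrain marker *Nr4a2* was called higher in both (1.13 and 1.16).

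Set against the mean of both OB regions, the mean of VTA and SN was 1.06 higher for *Th* (SE 0.14, 95% interval 0.78 to 1.35). It was 5.18 higher for *Ddc* (SE 0.17), 5.22 for *Slc6a3* (SE 0.09) and 5.29 for *Slc18a2* (SE 0.26). All 4 were called, where 1.81% of all probe sets were. Without replicate 2 of VTA or of SN the *Th* difference was 0.90 or 0.84, under the size rule, and the count of called genes was 3. Between the 2 parts of the bulb limma called 0 of the 9 genes, and 0 had an unadjusted p under 0.05 (0.00444% of probe sets were called higher and 0% lower in OB anterior). All 7 measured genes of a list of 8 bulb markers were higher in both, among them the olfactory bulb genes *Cdhr1* (5.73 in each) and *Doc2g* (4.48 and 4.55) and calretinin, *Calb2* (2.42 and 2.30), which marks periglomerular cells.

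In the hypothalamus *Th* was called higher in Arc, MPA, SO and Pa. It read 9.89 and 9.82 in Arc, 9.71 and 9.77 in MPA, 9.55 and 9.81 in SO and 9.40 and 9.50 in Pa. PAG lay among them at 9.69 and 9.53. The arrays of Arc, MPA, SO and PAG thus spanned 9.53 to 9.89, and neighbours in this order differed by less than the SE of a difference, 0.20. In Arc *Ddc* (9.87, 10.14) and *Slc18a2* (8.64, 8.80) were also higher, and *Slc6a3* read 7.53 and 7.82, the next level after SN and VTA and 0.87 above the others (adjusted p = 2.77e-11), under the size rule. Against Arc the mean of VTA and SN was 2.71 higher for *Th*, 2.86 for *Ddc*, 4.78 for *Slc6a3* and 3.55 for *Slc18a2*, all called, where 1.74% of probe sets were. SO combined the *Th* call with a *Ddc* of 8.56 and 8.50 and a *Slc18a2* of 6.47 and 7.00, neither called. In SO 10 of 11 oligodendrocyte and 11 of 12 leptomeningeal genes were also higher, whose part was not tested. Against the other 11 hypothalamic regions Arc had 0 of the 9 genes called by limma (0.495% of probe sets were called higher and 0.204% lower). By an adjusted p of limma under 0.05 alone 3 differed, all under the size rule. The differences were 0.95 for *Th*, 0.95 for *Slc6a3* and -0.79 for *Hdc*. By that rule 8.08% of probe sets were higher and 6.00% lower. Without Arc replicate 1 the count called was 2.

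The serotonin genes were highest in PAG and Tg. The raphe nuclei were not sampled as regions of their own, and which cells gave the signal was not tested. *Tph2*, the rate-limiting enzyme in neurons, read 11.37 and 10.10 in PAG and 10.82 and 10.39 in Tg. The median of the 48 regions was 4.50. *Slc6a4*, the serotonin transporter and the target of the reuptake inhibitors, read 11.89 and 10.49 in PAG and 11.13 and 10.74 in Tg, with a median of 6.68. Both genes had these 4 arrays as their highest, with a gap to Pn below. The differences from the other regions were 6.08 and 5.95 for *Tph2* (SE 0.12) and 4.40 and 4.14 for *Slc6a4* (SE 0.15). *Ddc* (12.41 and 11.19 in PAG, 11.41 and 11.24 in Tg) and *Slc18a2* (11.50 and 9.88 in PAG, 10.57 and 10.33 in Tg) were higher in the same 2 regions.

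Pn held the third level of both genes, although for *Slc6a4* replicate 2 of the retina (7.29) was above replicate 2 of Pn. *Tph2* read 6.24 and 5.52 there, 1.13 above the other regions (SE 0.12, adjusted p = 2.04e-11), and *Slc6a4* 8.08 and 7.23, 0.79 above them (adjusted p = 1.63e-05), under the size rule. Replicate 1 was the higher array for both. Without replicate 1 of Pn the *Tph2* difference was 0.77, and against the regions of the same sampling period it was 0.65, both under the size rule. MVe (medial vestibular nucleus) differed from Pn by -1.10 for *Tph2* (SE 0.17, adjusted p = 1.35e-06), where 0.695% of probe sets were called lower, and without Pn replicate 1 or MVe replicate 2 the value was -0.74 or -0.91, under the size rule. Below Pn the levels did not separate: from MVe down, *Tph2* means lay between 4.33 and 4.78.

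Between Tg and PAG limma called 0 of the 9 genes, against 0.0955% of probe sets called higher and 0.420% called lower in Tg. The count of called genes was 1 without either Tg array and 2 without PAG replicate 2. By an adjusted p of limma under 0.05 alone 3 differed, all under the size rule. These were *Dbh* (0.86), *Th* (-0.95) and *Slc6a3* (-0.49). By that rule 3.71% of probe sets were higher and 3.90% lower in Tg. The interval for Tg minus PAG was -0.46 to 0.21 for *Tph2* and -0.66 to 0.16 for *Slc6a4*. *Th* in Tg differed from PAG by -0.95 (adjusted p = 0.00152), and it was not called higher there against the other regions (8.32 and 9.005). Against the mean of the superior and inferior colliculi PAG was higher for *Tph2* by 6.20, *Slc18a2* by 4.80, *Slc6a4* by 4.49, *Ddc* by 3.99 and *Th* by 2.07, where 0.424% of probe sets were called higher.

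Against Tg the mean of VTA and SN was 5.84 higher for *Slc6a3*, 3.90 for *Th*, 1.82 for *Slc18a2* and 1.54 for *Ddc*, while the difference was -6.07 for *Tph2* and -4.29 for *Slc6a4*. These 6 calls compare with 0.340% of probe sets called higher and 0.171% called lower. Of 9 listed genes of serotonin neurons, PAG had 3 called higher (*Gata3* by 1.80, *Foxa2* by 1.30, *En1* by 1.12) and Tg 1 (*Gata3* by 1.63). *Gata3* is a transcription factor of raphe neurons, whereas *En1* and *Foxa2* are also dopamine neuron genes and stood higher in VTA and SN. *Lmx1b*, a factor that serotonin neurons need, differed by -0.06 in PAG and -0.04 in Tg.

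The genes that were high in a region could differ between its 2 arrays. In PAG replicate 2 minus replicate 1 was -1.62 for *Slc18a2*, -1.40 for *Slc6a4*, -1.27 for *Tph2* and -1.21 for *Ddc*, and at most 0.0289% of all probe sets differed by more than any of these. *Th* differed by -0.17 there. The genes of the serotonin set were thus all higher in replicate 1 of PAG. In Tg the arrays went different ways for different genes. Replicate 2 was higher by 0.69 for *Th* and by 1.58 and 0.50 for the *Slc6a2* and *Dbh* probe sets described next, and the difference was -0.44 for *Tph2* and -0.39 for *Slc6a4*. In VTA and SN replicate 2 was higher for all 4 dopamine genes, from 0.32 (*Slc6a3* in VTA) to 0.91 (*Th* in SN). In SN replicate 2 was also lower for all 11 oligodendrocyte, 8 astrocyte and 7 microglia genes of the lists (medians -0.14, -0.41 and -0.73), whose part was not tested. Read by the probe sets with the highest mean, the calls of *Th*, *Ddc*, *Slc6a3*, *Slc18a2*, *Tph2* and *Slc6a4* in VTA, SN, PAG and Tg against the other regions were kept when either array of the region was left out.

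**Figure D3:**
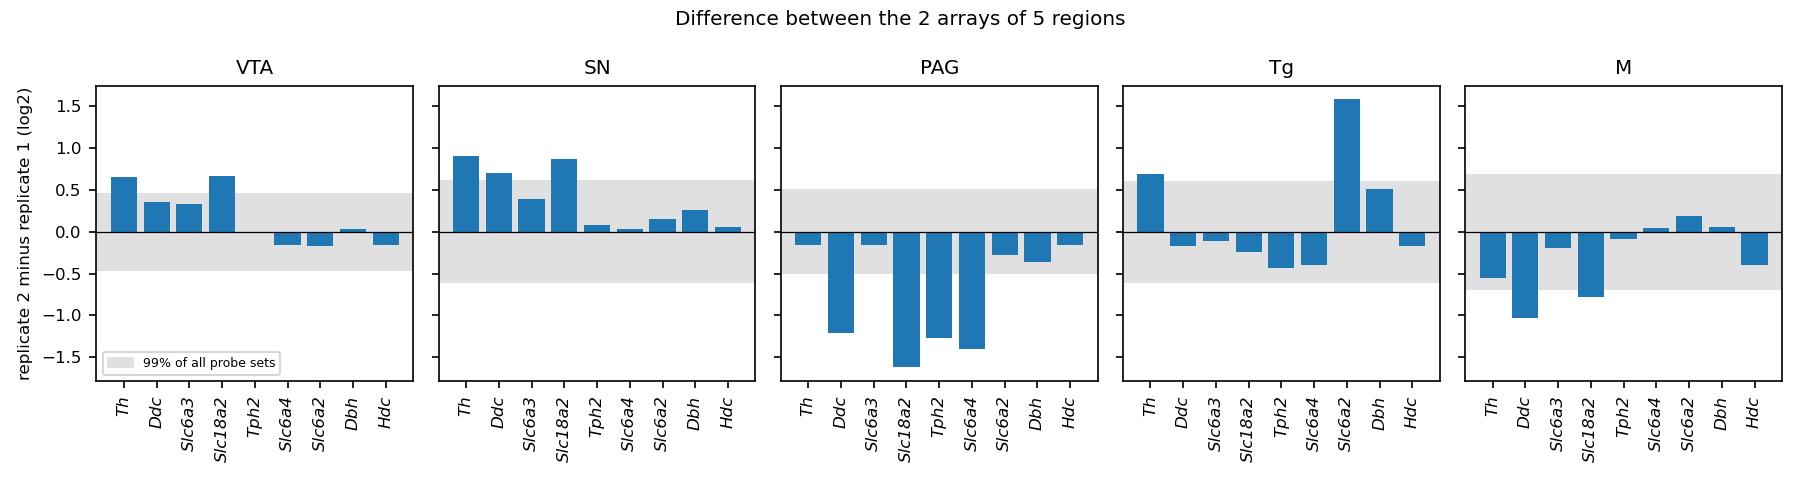
Bars give replicate 2 minus replicate 1 on the log2 scale for 9 probe sets in VTA, SN, PAG, Tg and M (Slc6a2 by its second and Dbh by the third probe set in order of mean), and the grey band holds 99% of all probe sets of that region. In PAG Ddc, Slc18a2, Tph2 and Slc6a4 fall below the band together while Th lies within it, and in Tg Slc6a2 and Th lie above it.

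The noradrenaline genes depended on the probe set read, and the locus coeruleus was not a sampled region. The probe set with the highest mean was almost flat for both. *Dbh* spanned 8.13 to 8.99 over the 48 regions, 1 of 3 probe sets, and *Slc6a2*, 1 of 4 probe sets, spanned 7.92 to 8.41, and neither was called anywhere. *Dbh* still ranked Tg first (8.78, 9.20) and Cb nucleus (cerebellar nucleus) second (8.73, 9.01), 0.64 and 0.52 above the other regions. The *Slc6a2* probe set placed Tg at rank 43 of 51.

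Other probe sets of the same genes showed larger differences. The second probe set of *Slc6a2* in order of mean read 8.31 and 9.89 in Tg, 8.14 and 8.14 in Cb nucleus and 6.98 and 7.53 in MVe, with a median of 6.52. It was higher in Tg by 2.50 (SE 0.16, adjusted p = 6.18e-19) and in Cb nucleus by 1.52 (adjusted p = 8.84e-12), where 1.26% of probe sets were called higher. The retina, at a mean of 7.68, stood above MVe. By limma the retina was also called higher than the 48 regions for this probe set (1.02, adjusted p = 3.65e-08), where 9.55% of probe sets were. The arrays of Tg and Cb nucleus lay above those of all other regions, though Tg replicate 1 was close to Cb nucleus. The third probe set of *Dbh* read 8.55 and 9.06 in Tg and 8.13 and 8.30 in Cb nucleus, with a median of 7.58, and was higher in Tg by 1.23 (SE 0.11), while the difference in Cb nucleus was 0.62, under the size rule. Without Tg replicate 2 the values in Tg were 1.71 for this *Slc6a2* probe set, still called, and 0.98 for this *Dbh* probe set, under the size rule. The second *Dbh* probe set also had its highest level in Tg (8.08, 8.47), 0.58 above the others. The other 2 *Slc6a2* probe sets were 0.30 and 0.21 above the others in Tg. Against PAG, Tg was higher by 2.75 for this *Slc6a2* and 1.30 for this *Dbh* probe set. In Cb nucleus *Th* had a mean of 7.86 and differed by -0.51 from the other regions. These 2 probe sets were singled out after their values had been seen. Of the 4 measured genes of a list of 6 for noradrenaline neurons, Tg had 0 called higher by limma and Cb nucleus 1 (*Tfap2b*, by 1.10), and *Phox2a*, a factor that specifies these cells, was 0.51 above the others in Tg (adjusted p = 7.06e-07).

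**Figure D4:**
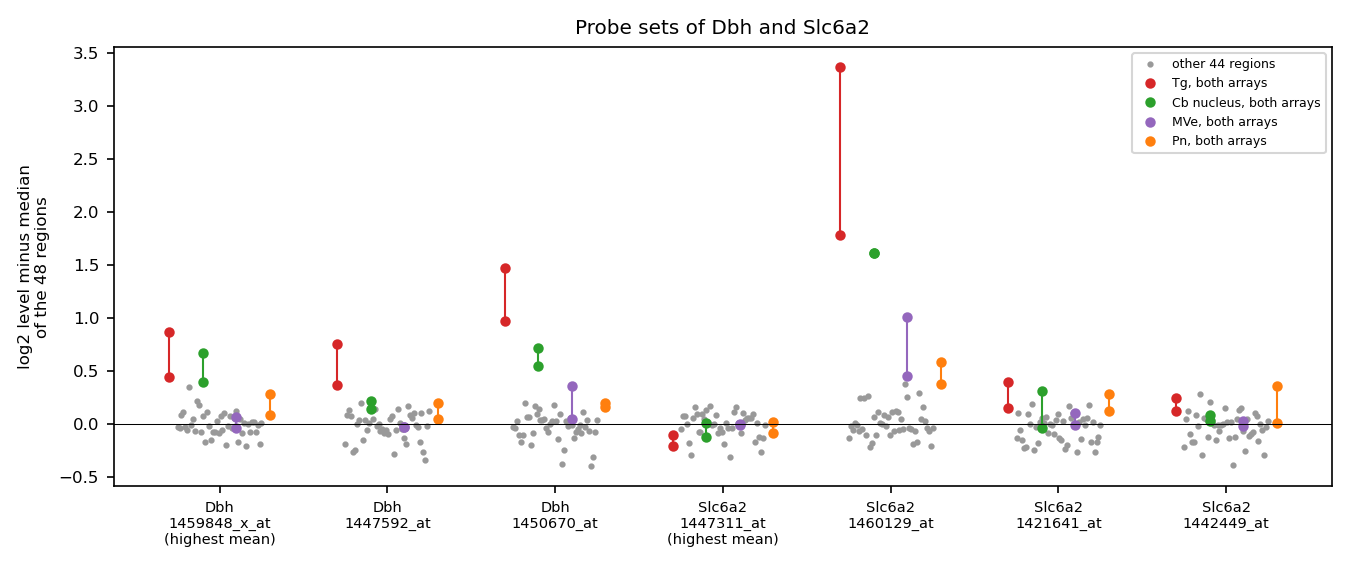
The vertical axis is the log2 level minus the median of the 48 regions for each probe set of Dbh and Slc6a2; coloured points joined by a line are the 2 arrays of Tg, Cb nucleus, MVe and Pn, and grey points the means of the other 44 regions. Tg and Cb nucleus stand out by the second Slc6a2 and the third Dbh probe set, and the probe sets with the highest mean show little or none of this.

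The histamine gene *Hdc* was called higher in M, DM and MPA. The tuberomammillary nucleus was not sampled as a region of its own, and which cells gave the signal was not tested. It read 10.36 and 9.96 in M, 10.34 and 10.19 in DM and 9.26 and 9.29 in MPA, with a median of 8.06 over the 48 regions. The arrays of M and DM overlapped with each other and with no other region. The differences were 1.98 in M (SE 0.11), 2.09 in DM (SE 0.11) and 1.08 in MPA (SE 0.11). The second *Hdc* probe set read 9.91 and 9.23 in M, 9.77 and 9.32 in DM and 8.37 and 8.29 in MPA, over a median of 5.66. Its differences were larger (3.50, 3.48 and 2.24), and it was also higher in SPa dorsal, SPa ventral, VMH and SCN, by 1.92, 1.49, 1.34 and 1.30. Over the 48 regions the 2 probe sets correlated with r = 0.96, as a description of regional means that share arrays.

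*Slc18a2* accompanied *Hdc* in M (10.17, 9.39) and DM (10.06, 9.92), the next regions after VTA, SN, PAG and Tg. *Ddc*, which histamine neurons do not need for their transmitter, read 10.03 and 8.998 in M, not called, and 10.28 and 10.09 in DM, called. Against the other 11 hypothalamic regions M was 1.48 higher for *Hdc* and 1.70 for *Slc18a2* and differed by -1.11 for *Th*, where 0.659% of probe sets were called higher and 0.295% lower. Without M replicate 2 the *Th* value was -0.83, under the size rule.

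M and DM were also compared directly, a contrast added after the values had been seen. *Th* was 1.28 higher in DM (SE 0.20, adjusted p = 2.09e-06), where 1.16% of probe sets were called higher, and without M replicate 1 the count of called genes was 2. *Hdc* differed by 0.11 with an interval of -0.20 to 0.42, and *Slc18a2* by 0.22 (interval -0.52 to 0.96). Of a list of 7 genes of histamine neurons, M had 2 called higher and DM 3. *Wif1*, a secreted Wnt inhibitor, was 1.76 and 2.67 higher and *Maob*, which degrades the histamine metabolite, 1.10 and 1.55 higher, while galanin (*Gal*) was 2.91 higher in DM and -0.08 in M. Mast cells also express *Hdc*. Of 10 mast cell genes 1, the receptor *Kit*, was higher in M and DM (1.45 and 1.39). The proteases *Cma1*, *Mcpt4*, *Cpa3*, *Tpsb2* and *Tpsab1* differed by -0.26 to -0.03 in M and DM, and the part of mast cells in the *Hdc* levels was not tested.

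**Figure D5:**
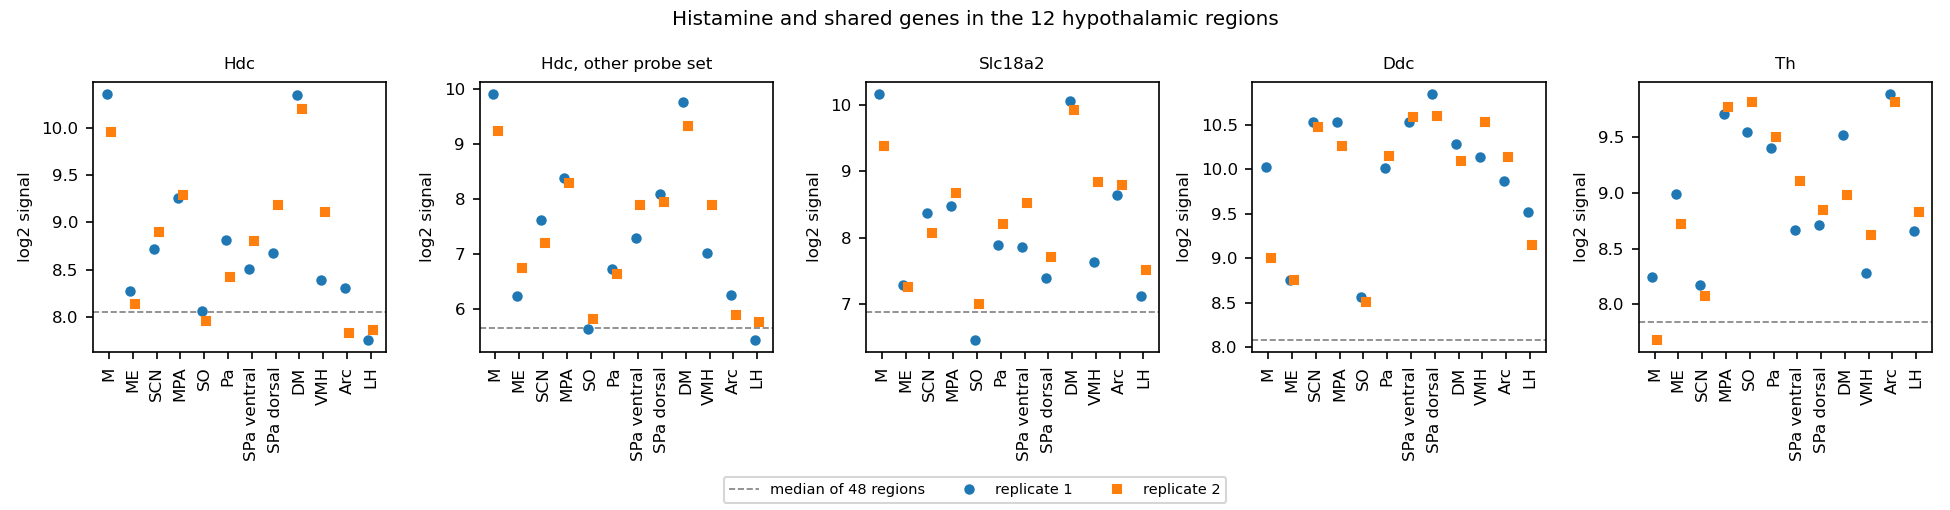
Points are the 2 arrays of the 12 hypothalamic regions for both probe sets of Hdc and for Slc18a2, Ddc and Th, on log2 signal axes that do not start at 0, with a dashed line at the median of the 48 regions. Hdc and Slc18a2 are highest in M and DM, whereas Th is lowest in M and highest in Arc, MPA and SO.

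*Ddc*, shared by dopamine, noradrenaline and serotonin neurons, and *Slc18a2*, shared by these and histamine neurons, had the widest reach. *Ddc* was higher in 8 hypothalamic regions, at 10.85 and 10.60 in SPa dorsal, 10.54 and 10.59 in SPa ventral, 10.53 and 10.47 in SCN, 10.54 and 10.27 in MPA and 10.14 and 10.54 in VMH, with DM, Pa and Arc next. By the probe sets used no other of the 9 genes was called higher in SPa dorsal, SPa ventral, SCN and VMH, where the second *Hdc* probe set was. Against the regions of the same sampling period the values of SPa dorsal and SPa ventral were 0.97 and 0.77, under the size rule. Ependymal genes were higher in MPA (6 of 6), SPa dorsal and SPa ventral (4 of 6 each), and their part was not tested. The second *Ddc* probe set was called higher in none of the 48 regions by limma and stayed between 6.47 and 7.31 in all of them.

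*Slc18a2* was also called higher in LS (8.57 and 8.52) and LG (8.31 and 9.003), where no other of the 9 genes was. In LS *Ddc* was lower, at 7.22 and 7.07 (-1.46). Both calls fell under the size rule against regions of the same sampling period (0.85 and 0.97), and in LG the test was lost without replicate 2 (0.91, adjusted p = 0.103). Over the 48 regions *Ddc* and *Slc18a2* correlated with r = 0.81, and with r = 0.60 without VTA, SN, PAG and Tg. These values describe regional means that share arrays and have no test.

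Outside the brain regions proper, the pineal stood apart for *Ddc*. It read 13.30 and 13.21 there, above every brain array, and 4.68 above the mean of the 48 regions (SE 0.17, adjusted p = 4.44e-33), where 6.27% of probe sets were called higher. The second *Ddc* probe set read 11.61 and 11.46 in the pineal (4.57 higher), and its highest array elsewhere read 7.43. *Tph2* (4.43, 4.49) and *Slc6a4* (6.77, 6.68) were at the level of most regions in the pineal, and *Slc18a2* (5.82, 5.75) differed by -1.64 (6.48% of probe sets called lower). The pineal can make melatonin from serotonin, and melatonin was not measured in these mice. *Tph1*, the tryptophan hydroxylase of the pineal, was 8.66 higher there, at a mean of 14.04. In the pituitary *Slc18a2* differed by -1.59 (5.99% of probe sets called lower), and in the retina *Ddc* differed by -1.40 (7.95%), with *Th* at 7.73 and 8.25.

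Other genes of the pathway were read from a list of 20, of which 16 had a probe set. Over the 48 regions 20 of 768 pairs of gene and region were called higher (2.60%), beside 1.40% over all probe sets. *Gch1*, which makes the first step of the tetrahydrobiopterin cofactor that the tyrosine and tryptophan hydroxylases need, was higher in VTA (2.19, SE 0.17), Tg (1.58), PAG (1.46), SN (1.26) and ME (median eminence, 1.24). In OB anterior and OB posterior, where *Th* was high, *Gch1* differed by -0.22 and -0.09. *Gchfr*, the feedback regulator of that enzyme, was higher in PAG (1.64) and Tg (1.09) and differed by -0.31 in VTA and -0.11 in SN. The mean of VTA and SN differed from Tg by -1.27 for *Gchfr* (SE 0.13, adjusted p = 3.43e-10). *Maob*, a monoamine oxidase of astrocytes and of serotonin and histamine neurons, was higher in 6 regions, the thalamic MD (2.37) and Hb (1.31) and PAG (1.81), DM (1.55), Tg (1.20) and M (1.10), and lower in DG (-1.07) and CPu lateral (-1.02). *Maoa* was called in none of the 48 by limma.

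*Pcbd1*, which takes part in recycling the cofactor, was higher in MPA (1.57), Arc (1.501), DM (1.16) and ME (1.15), and *Qdpr*, which also recycles it, was lower in the regions labelled ventral S (-1.12) and A posterior (-1.35). *Slc22a2*, an organic cation transporter, was higher in SO (1.24). *Hnmt*, which methylates histamine, was higher in CA1 (1.02). *Cyb561*, the vesicle cytochrome that returns electrons for *Dbh*, was higher in SPa dorsal (1.12) and lower in DG (-1.40), Cb vermis (-1.95) and Cb lobe (-2.18). *Tph1*, *Pnmt*, *Slc18a1*, *Slc29a4*, *Aanat* and the cofactor synthesis genes *Pts* and *Spr* were by limma called neither higher nor lower in any of the 48. The list median was 0.32 in PAG and 0.18 in VTA, beside -0.02 and -0.03 over all probe sets. In the pineal 5 of 16 were higher, which besides *Tph1* were *Gch1* (4.81), *Pcbd1* (1.83), *Cyb561* (1.57) and *Pts* (1.21), while *Aanat*, the melatonin enzyme, was 0.58 higher, under the size rule.

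The genes whose regional pattern was most like each member were found by Pearson's r over the means of the 48 regions, among 14482 genes with a highest mean of at least 7. *Tph2* and *Slc6a4* were each other's nearest gene with r = 0.99 (0.79 over the 46 regions without PAG and Tg), followed for both by *Gchfr* (0.77 and 0.78) and *Gata3* (0.65 and 0.64). Without PAG and Tg these fell to 0.0038 and 0.15 for *Gchfr* and to 0.12 and 0.10 for *Gata3*. For *Slc6a3* they were *Aldh1a7* (0.91), *Chrna6* (0.89) and the guanylate cyclase receptor *Gucy2c* (0.88), and without VTA and SN these fell to 0.02, 0.00 and -0.12. *Th* was nearest to *Slc6a3* (0.76), *Fam184a* (0.72) and *Hcn3* (0.70). *Ddc* was nearest to *Slc18a2* (0.81), *Aida* (0.79) and *Gprin2* (0.79), and *Slc18a2* to *Ddc*, *Foxa1* (0.77) and *Gch1* (0.76). *Hdc* had *Adcyap1* (0.69), *Gstm6* (0.68) and *Gabre* (0.68). For the flat probe sets used of *Dbh* and *Slc6a2* the nearest genes were *Pla2g4d* (0.57) and *Plk1* (0.83). The second *Slc6a2* probe set was nearest to *Dbh* (0.80), and without Tg and Cb nucleus this fell to 0.47. All these values describe regional means on shared arrays and carry no test.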

How the data were processed

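Per the labels, RNA pooled for each region was hybridized to Affymetrix mouse genome arrays, and the authors summarized probe sets by RMA (version not given in the sources used here). The deposited values are log2 expression values, used as given; RMA's quantile step sets all arrays on 1 distribution, so differences are relative to the other genes of an array. Arrays give no counts, and their number (2 for each region) limits the precision. The genes and lists were chosen with earlier results of these data known. All 45037 probe sets other than 64 controls were fitted in R 4.3.3 with limma 3.58.1. The model held 1 coefficient for each region over 96 arrays of 48 regions (48 residual degrees of freedom) or over all 102 arrays for retina, pituitary and pineal, and Benjamini-Hochberg adjustment over all probe sets of a comparison. Named were the 10 genes in every region, pathway and neuron list genes called where a member was, and the 3 genes most like each member. Each probe set had 1 estimate of spread, pooled over the regions of the fit, which need not match the spread of a single region. The code was tested on simulated data. Gene symbols were those of the array annotation (34945 probe sets had a single symbol), and RefSeq gave promoters for 9 of the 10 genes. Replicates come from separate pools of mice. Regions were sampled in 4 periods. The alternatives tried were a replicate block, sampling day as a random block, cyclic loess, another variance prior, a filter on dim probe sets, all arrays, regions of the same period, other probe sets, other thresholds and 1 array left out.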

Additional observations from a re-analysis of the deposited data

How the results depend on the processing

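All 70 called differences of the 9 genes kept their direction and their call with a replicate block, with sampling day as a random block, after cyclic loess, with a trended and robust variance prior and with a filter of 7 on the highest regional mean, and 66 of 66 did in the fit of all arrays. Against regions of the same sampling period 35 kept the call and 6 lost the size rule (*Slc18a2* in LS, LG and MPA at 0.85, 0.97 and 0.89, *Ddc* in SPa ventral and SPa dorsal at 0.77 and 0.97, *Tph2* in Pn at 0.65).

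The probe set changed most. With the next probe set in order of mean *Ddc* was called higher in 0 regions, *Slc6a2* in 2 and *Hdc* in 7, and 1 gene was called for Tg against PAG and 1 for Arc against the other hypothalamic regions. That *Ddc* probe set had the opposite sign in SCN (-0.50) and MPA (-0.33), under the size rule (limma adjusted p = 0.00103 and 0.0429). The sign was also negative in DM (-0.29), VMH (-0.15), Arc (-0.10) and for Cb nucleus against the cerebellar cortex (-0.0391). There the adjusted p of limma was 0.0712 to 0.864, so no difference was shown. The cause was not tested. With the probe set of widest range, an alternative chosen after seeing the data, *Dbh* was higher in 1 region, *Slc6a2* in 2 and *Hdc* in 7, and 2 genes were called for Tg against PAG, 1 for Arc, 2 for Cb nucleus against the cerebellar cortex and 2 for the retina. By adjusted p alone *Slc6a3* was higher in 8 regions, *Dbh* in 4, *Slc6a2* in 1 and *Hdc* in 9, and with a difference of at least 2 *Th* was in 4, *Ddc* in 6, *Slc18a2* in 6 and *Hdc* in 1, as fewer or more pairs pass another size rule. On linear values 5 of 9 genes kept their most alike gene.

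With 1 array left out 225 refitted values of the followed differences kept the call and 7 did not. Of the other probe sets described the third of *Dbh* lost its call in Tg without Tg replicate 2 (0.98), an alternative chosen after seeing the data. The count of called genes ranged from 1 to 2 for DM against M, 0 to 2 for Arc, 0 to 2 for Tg against PAG, 0 to 2 for MVe against Pn and 1 to 2 for the pituitary (2 without pituitary replicate 2). The replicate number is shared by all regions but did not meet the bar for pairing them: over 1128 pairs of regions the mean correlation of same-numbered deviations was 0.0085, from -0.57 to 0.53. It was 0.0873 over the 59 pairs that shared their first sampling days in both replicates (28 of them over 0.1), and 0.1357 for VTA with SN. With the replicate block *Th* was called higher in 9 regions, *Ddc* in 12, *Slc18a2* in 10, *Tph2* and *Hdc* in 3 each and *Slc6a3* and *Slc6a4* in 2 each, and the block changed no count. With 2 arrays a region, small differences between neighbouring regions could not be resolved.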
